A study of Mus musculus with 16 samples.

Results

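The mouse Hox genes in lumbar dorsal root ganglia (DRG) were taken as every protein-coding row of the deposited expression table whose symbol is Hox, a cluster letter from a to d and a number. This gave 38 of 36722 rows: 11 in the Hoxa cluster, 10 in Hoxb, 9 in Hoxc and 8 in Hoxd. Hoxd4, a protein-coding gene in the annotation, is not among these rows, so its level is unknown here. RNA was sequenced after polyA selection from ganglia L3 to L5 of C57BL/6 mice whose hind paw had been injected with 20 µl of 2% carrageenan, an irritant that causes persistent inflammatory pain. On day 6 the mice received an intrathecal injection, and ganglia were taken 6 hours after it. The fusion protein group (n = 6) received 1 µg of IL4-10 FP, which joins the anti-inflammatory cytokines IL4 and IL10 in a single molecule. The combination group (n = 5) received 0.5 µg each of the unlinked IL4 and IL10, and the vehicle group (n = 5) received PBS. Every group, vehicle included, carried carrageenan inflammation, so no comparison here is with an uninflamed paw. The labels do not say that each library came from a separate mouse, or whether ganglia were pooled across animals, so the p-values measure the spread between these libraries.

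Hox genes encode homeodomain transcription factors that give cells along the head-to-tail axis their positional identity. In mammals they lie in 4 clusters on different chromosomes, and genes at the same relative place in the clusters share a paralogue number. Low numbers are expressed from the hindbrain backwards and high numbers only towards the tail, and neurons and surrounding cells of the adult trunk keep part of this pattern. Hox proteins bind DNA together with TALE cofactors of the Pbx and Meis families, and Polycomb and MLL proteins hold the clusters silent or active.

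The deposited values are variance-stabilised and on a log2 scale. They were converted back to the whole numbers from which they had been made, called scaled values here; these are not read counts, and the read depth is unknown. A gene that is not detected has a scaled value of 1 (6.17 on the log2 scale). In mega-units (M), scaled values summed to 16.7 to 19.1 M per fusion protein library, 18.2 to 20.9 M per combination library and 17.2 to 18.7 M per vehicle library. Libraries of the groups leaned differently on GC content (slopes of 0.0153 ± 0.0586 in fusion protein, -0.0888 ± 0.0448 in combination and 0.0705 ± 0.0602 in vehicle libraries, mean ± SD, log2 units per SD of GC content) and on exonic length (-0.0492 ± 0.0243, -0.0126 ± 0.0235 and 0.0716 ± 0.0300). The tested Hox genes have a median GC content of 51.6%, against 45.7% over all tested genes, and a median exonic length of 2574 bases, against 4616. In bulk ganglia, fewer cells of a type and less RNA per cell cannot be told apart.

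The 250 bases before a RefSeq transcription start (GRCm38.p6) were available for 21 of the 38 genes, with 23 starts. They were rich in CpG dinucleotides, with a median of 13 per promoter against 6 over the 32851 promoters in the table. The letters TATAAA, on either strand, were found in 3 of the 23 and in 12.37% of all promoters. The letters TGATNNAT, which a Hox and Pbx pair can recognise, were found on either strand in 4 of the 23 and in 7.683% of all promoters. A match describes the letters only. The 5 promoters printed here belong to Hoxd1, which had the highest level of the Hoxd cluster, to Hoxd10 and Hoxd11, neighbours that vary most between libraries, and to Hoxb4 and Hoxc4, paralogues that were both lower with the fusion protein. They lie at chr2:74762730-74762979, chr2:74691641-74691890, chr2:74682073-74682322, chr11:96318017-96318266 and chr15:103034145-103034394, in this order and all on the plus strand. The Hoxc4 start lies within the annotated gene, which runs from 103018934 to 103036852, and the Hoxd11 start shown lies within its gene, from 74679557 to 74687016. Hoxd11 has another RefSeq start at the 5′ end of that gene, whose promoter holds 2 CpG dinucleotides and is not printed. Sequences read 5′ to 3′, and capitals mark CpG dinucleotides, of which there are 24, 20, 20, 14 and 8.
Hoxd1: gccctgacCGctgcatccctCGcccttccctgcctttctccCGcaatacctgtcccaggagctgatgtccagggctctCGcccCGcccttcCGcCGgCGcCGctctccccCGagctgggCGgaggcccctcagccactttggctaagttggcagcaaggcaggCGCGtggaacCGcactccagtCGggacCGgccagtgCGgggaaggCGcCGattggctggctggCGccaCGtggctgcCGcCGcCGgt
Hoxd10: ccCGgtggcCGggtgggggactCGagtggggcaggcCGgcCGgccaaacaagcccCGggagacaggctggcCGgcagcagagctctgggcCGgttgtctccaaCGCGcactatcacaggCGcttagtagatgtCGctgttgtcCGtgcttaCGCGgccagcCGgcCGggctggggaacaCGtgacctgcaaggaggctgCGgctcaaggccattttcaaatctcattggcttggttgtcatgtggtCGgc
Hoxd11: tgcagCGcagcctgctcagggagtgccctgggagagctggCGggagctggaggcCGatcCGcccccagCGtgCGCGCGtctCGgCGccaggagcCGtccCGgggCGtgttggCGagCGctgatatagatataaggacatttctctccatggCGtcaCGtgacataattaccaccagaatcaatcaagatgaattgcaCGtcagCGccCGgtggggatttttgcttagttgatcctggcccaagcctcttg
Hoxb4: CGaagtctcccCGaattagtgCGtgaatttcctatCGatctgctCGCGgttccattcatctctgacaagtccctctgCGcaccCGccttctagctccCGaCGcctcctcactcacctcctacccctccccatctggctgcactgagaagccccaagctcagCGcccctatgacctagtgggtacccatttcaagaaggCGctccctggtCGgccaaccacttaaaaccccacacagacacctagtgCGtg
Hoxc4: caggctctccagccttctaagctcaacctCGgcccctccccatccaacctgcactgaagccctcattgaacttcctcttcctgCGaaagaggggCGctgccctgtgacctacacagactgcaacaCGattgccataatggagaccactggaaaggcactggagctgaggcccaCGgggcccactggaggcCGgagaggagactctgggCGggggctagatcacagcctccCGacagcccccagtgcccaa

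Lumbar ganglia expressed Hox genes of paralogues 1 to 10 and hardly any of paralogues 11 to 13. A gene counted as expressed when its mean over the 16 libraries reached 6.99 on the log2 scale (a scaled value of 31.8), which is 1 unit over the table's lowest value. By this rule 25 of the 38 Hox genes were expressed (65.8%, against 60.3% of all protein-coding rows): 6 of 11 in Hoxa, 8 of 10 in Hoxb, 6 of 9 in Hoxc and 5 of 8 in Hoxd. Every gene present of paralogues 3 and 5 to 10 passed. So did 2 of the 3 present of paralogue 4 (Hoxd4 being absent), 1 of 2 of paralogue 2 and, of paralogue 1, Hoxd1. Just inside the limit was Hoxb8 with a mean of 33.3, and just outside was Hoxa4 with 30.3.

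Levels are compared between genes as the scaled value above the undetected level, per kilobase of exon, averaged over the 16 libraries. Summed over the clusters, this level was highest for paralogue 9, at 381, followed by 286 for paralogue 10, 270 for paralogue 7 and 210 for paralogue 6. It was 168 for paralogue 8, 136 for paralogue 5, 93.9 for paralogue 4, 46.9 for paralogue 3 and 24.6 for paralogue 2. The sum was thus higher for paralogues 6 to 10 than for 2 to 5, and it dropped to 6.52 for paralogue 11, 0 for paralogue 12 and 0.164 for paralogue 13. The exception at the low end was Hoxd1 of paralogue 1, with a level of 129. By cluster, the sum was 649 in Hoxa, 440 in Hoxb, 370 in Hoxd and 300 in Hoxc (299.5). The sums of paralogue 4 and of Hoxd lack Hoxd4.

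**Figure D1:**
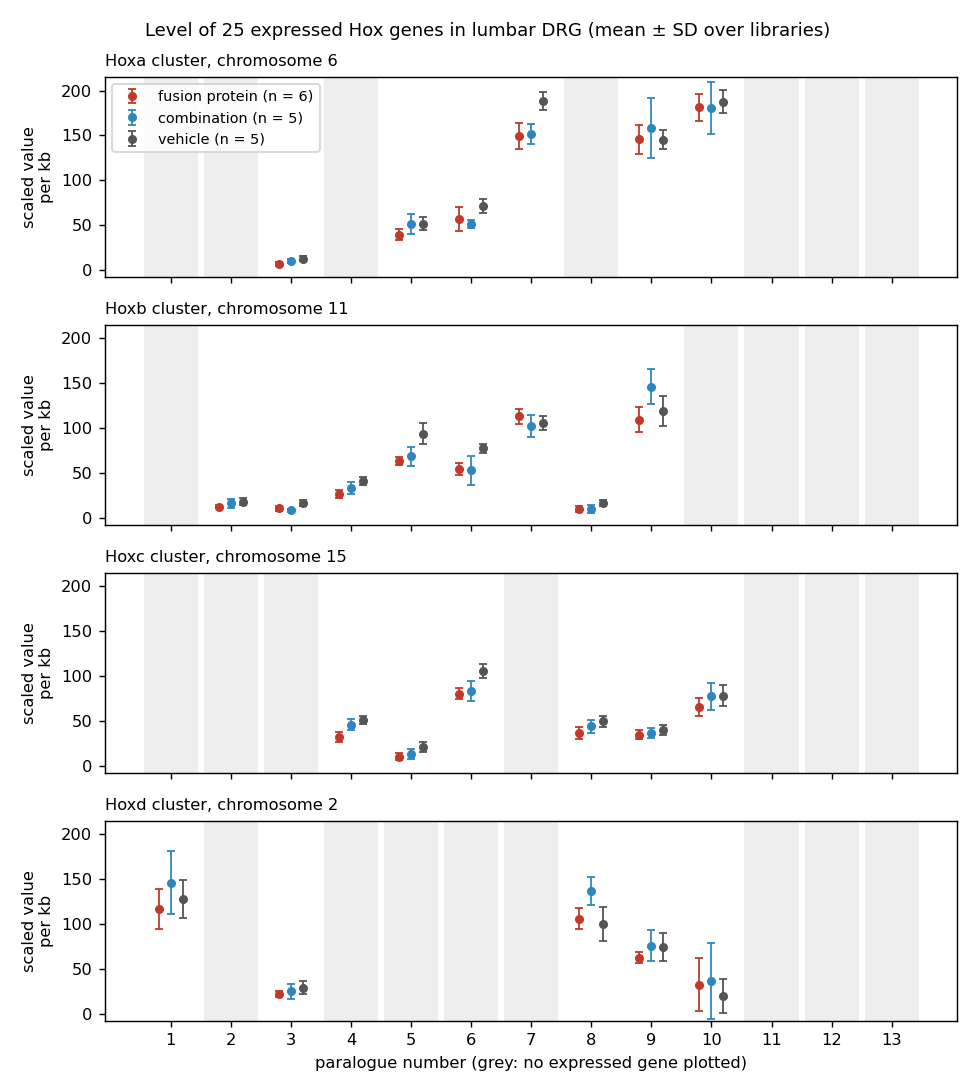
Level of the 25 expressed Hox genes by paralogue number (horizontal axis) in each cluster, as the scaled value above the undetected level per kilobase of exon (vertical axis), for fusion protein (n = 6), combination (n = 5) and vehicle libraries (n = 5). Points are group means and bars are SD. The highest levels are at paralogues 7, 9 and 10 in the Hoxa cluster and at 7 and 9 in the Hoxb cluster, where Hoxb8 is low, Hoxd1 lies above the genes of paralogues 2 to 5 in every group, and no gene of paralogues 11 to 13 passed the limit.

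Hoxa10 had the highest level of all, 183 per kilobase, followed by Hoxa7 with 162 and Hoxa9 with 150 (149.6). Hoxa10 acts with Hoxc10 and Hoxd10 in giving motor neurons their lumbar identity in the mouse. In Hoxb the highest was Hoxb9 with 124, then Hoxb7 with 108, Hoxb5 with 74.6 and Hoxb6 with 61.4. In Hoxc the highest was Hoxc6 with 89.2, then Hoxc10 with 73.0, Hoxc8 with 42.8 and Hoxc4 with 42.3. Hoxc6 and Hoxc8 are known from motor neurons at forelimb level. In Hoxd the order was Hoxd1 with 129, Hoxd8 with 113, Hoxd9 with 70.3, Hoxd10 with 29.6 and Hoxd3 with 25.1. Hoxd1 is known in mouse as a gene of nociceptive sensory neurons.

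Hoxd1 had scaled values of 159 to 329 over the 16 libraries, and Hoxb1 was undetected in each of them.

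Among the 13 genes below the limit, some were detected everywhere and others were absent or nearly so. Hoxa4 (scaled values of 17 to 41), Hoxa2 (6 to 32) and Hoxa11 (3 to 16) were above the undetected level in all 16 libraries. Hoxd11 was above it in 13 libraries, with at most 47, and Hoxc11 in 11 libraries, with at most 10. Hoxa13, Hoxb13 and Hoxc13 were each above it in 1 library, at 2, 5 and 2. Hoxb1, Hoxc12, Hoxd12 and Hoxd13 were undetected in all 16 libraries. Paralogues 11 to 13 specify the tail end and distal limb in the embryo.

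Some of these genes share exonic bases with a neighbour, and whether the counting used strand is not given in the sources used here, so such reads cannot be assigned with certainty. The antisense transcript Hoxb3os overlaps 52.9% of the exonic length of Hoxb3 and 27.3% of that of Hoxb2. Hoxa11os overlaps 35.0% of Hoxa11 and Hoxaas3 overlaps 20.4% of Hoxa7. On the same strand, Gm28230 overlaps 53.1% of Hoxd3 and Hoxd4 overlaps 9.3% of it, and Hoxc5 and Hoxc10 share 166 bases.

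Fusion protein against vehicle shows how Hox expression in inflamed mice stood 6 hours after IL4-10 FP. With limma and adjustment over all 13385 tested genes, 11 of the 25 tested Hox genes fell with the fusion protein against vehicle (44%), while 13.7% of all tested genes were lower and 12% were higher. Hox genes called higher numbered 0. The 11 include Hoxb8, which passed the limit for testing only through its vehicle values. At an unadjusted p under 0.05, 13 were lower and 0 higher, but the share of all tested genes at that threshold is not given here. The other 13 Hox genes were below the limit and not tested. All 11 belong to paralogues 3 to 8, of which 16 genes were tested. The median log2 difference was -0.27 over those 16 genes, -0.09 over the 7 of paralogues 9 and 10, where 0 were called, and -0.15 over the 2 of paralogues 1 and 2. The difference between these positions was not tested. These ranges follow the span of the called genes, so their medians are not read as a pattern by position. Just outside that span, Hoxb2 was at -0.20 (limma adjusted p = 0.0629). By cluster, 2 of 6 fell in Hoxa, 5 of 8 in Hoxb, 4 of 6 in Hoxc and 0 of 5 in Hoxd. Over all 25 the median log2 difference was -0.20, against -0.02 for all tested genes, and 22 differences were negative and 3 positive. Per library, the median over the 25 genes, relative to the vehicle mean, was -0.25 to -0.12 in fusion protein and -0.10 to 0.04 in vehicle libraries. In 8 of the 11 genes no fusion protein library reached the lowest vehicle library. These genes had already been called lower, and the share of all tested genes without overlap is not given here. The count is therefore not read as a trait of Hox genes.

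Hoxb5, which helps to set forelimb position and acts in enteric neural crest, had scaled values of 163 to 195 in fusion protein libraries, with a median of 174 (173.5). In vehicle libraries it had 286, 255, 232, 306 and 235. Every fusion protein library lay below every vehicle library, and the log2 difference was -0.38 ± 0.07 (SE, limma adjusted p = 0.00118). Hoxc4 had 63 to 109 in fusion protein libraries, with a median of 82.5, against 119, 146, 134, 138 and 125 in vehicle libraries. The groups did not overlap, and the log2 difference was -0.36 ± 0.07 (limma adjusted p = 0.00121). Hoxb4, its paralogue and a known regulator of haematopoietic stem cells, had 59 to 86 in fusion protein libraries, with a median of 64, against 87, 117, 111, 102 and 114 in vehicle libraries. The highest fusion protein library was thus next to the lowest vehicle library, and the log2 difference was -0.31 ± 0.07 (limma adjusted p = 0.00467).

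Hoxa7, the second most abundant Hox gene per kilobase, had 355 to 480 in fusion protein libraries, with a median of 439 (438.5), against 589, 515, 523, 549 and 542 in vehicle libraries. Its groups did not overlap and the log2 difference was -0.28 ± 0.06 (limma adjusted p = 0.00439), a mean scaled value 20.9% lower (change of -20.9%). Hoxc6 had 167 to 209, with a median of 196, against 227, 262, 276, 256 and 256 in vehicle libraries. Its log2 difference was -0.27 ± 0.07 (limma adjusted p = 0.00592), again with no overlap. Among the remaining genes without overlap, Hoxb6 had 92 to 131 in fusion protein libraries (mean 108 ± 13.7, SD, n = 6) and 140 to 166 in vehicle libraries (154 ± 9.92, n = 5), with a log2 difference of -0.30 ± 0.09 (limma adjusted p = 0.0227). Hoxc8 had 77 to 119 in fusion protein and 124 to 163 in vehicle libraries (-0.26 ± 0.08, limma adjusted p = 0.0275). Hoxb8, just inside the limit for testing, had 16 to 37 in fusion protein and 38 to 57 in vehicle libraries (-0.25 ± 0.09, limma adjusted p = 0.0471). Its mean log2 value was 6.92 in fusion protein, 6.92 in combination and 7.17 in vehicle libraries. It thus passed the limit of 6.99 only through vehicle, the group where it was high, and its call is not used as support.

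The paralogue 3 and 5 genes at lower levels overlapped between the groups. Hoxa3, a regulator of pharyngeal organ development, had 32 to 71 in fusion protein libraries (median 39.5) and 54 to 100 in vehicle libraries, with a log2 difference of -0.37 ± 0.09 (limma adjusted p = 0.00546). Hoxc5 had 19 to 54 in fusion protein libraries (median 31) and 39 to 82 in vehicle libraries, the largest relative difference of the 11 (mean scaled value changed by -50.7%, limma adjusted p = 0.012). Hoxb3 had 29 to 64 in fusion protein libraries (median 48) and 53 to 84 in vehicle libraries (-0.29 ± 0.08, limma adjusted p = 0.0173), and 3 of 6 fusion protein libraries lay below every vehicle library. For both Hoxa3 and Hoxc5 this held for 5 of 6. The log2 scale used for the tests compresses differences, most at such levels but also higher up. A percent change of scaled values is therefore larger than the log2 difference beside it implies. For Hoxb5, at a higher level, the mean scaled value changed by -32.3% beside a log2 difference of -0.38.

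Hoxa10, the gene of the highest level per kilobase, did not pass, and neither did Hoxa9 and Hoxd1. Hoxa10 had 506 to 659 in fusion protein libraries, with a median of 599 (598.5), and 562, 623, 607, 606 and 676 in vehicle libraries. The log2 difference was -0.04, with a 95% interval of -0.22 to 0.13. For Hoxa9 the log2 difference was -0.00081 (interval -0.23 to 0.23), for Hoxd1 it was -0.10 (-0.34 to 0.15), and for Hoxb7 it was 0.06 (-0.07 to 0.19). Hoxb9, Hoxc9, Hoxc10 and Hoxd9 had log2 differences of -0.09, -0.11, -0.15 and -0.14, and Hoxa5, Hoxa6, Hoxb2 and Hoxd3 of -0.20 (-0.195), -0.14, -0.20 and -0.20. Hoxd8 was at 0.07. The intervals allow decreases as large as those of the called genes for several of the 14, such as Hoxd3 with an interval from -0.43 to 0.02.

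Within the libraries whose label numbers run from 1 to 8 (4 fusion protein and 4 vehicle), 6 Hox genes were called, Hoxa7, Hoxb4, Hoxb5, Hoxb6, Hoxc4 and Hoxc6, all lower, while 8.5% of all tested genes were lower. Among the numbers 12 to 19 there is only 1 vehicle library, too few for a value. With trends on GC content and exonic length removed, 13 were called, all lower (12.9% of all tested genes), which added Hoxa5, Hoxa6 and Hoxc10 of paralogue 10 and lost Hoxb8. Hoxb8 is the least secure call: it missed the threshold under 15 of 25 alternatives, among them 11 of the 16 omissions of a single library.

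**Figure D2:**
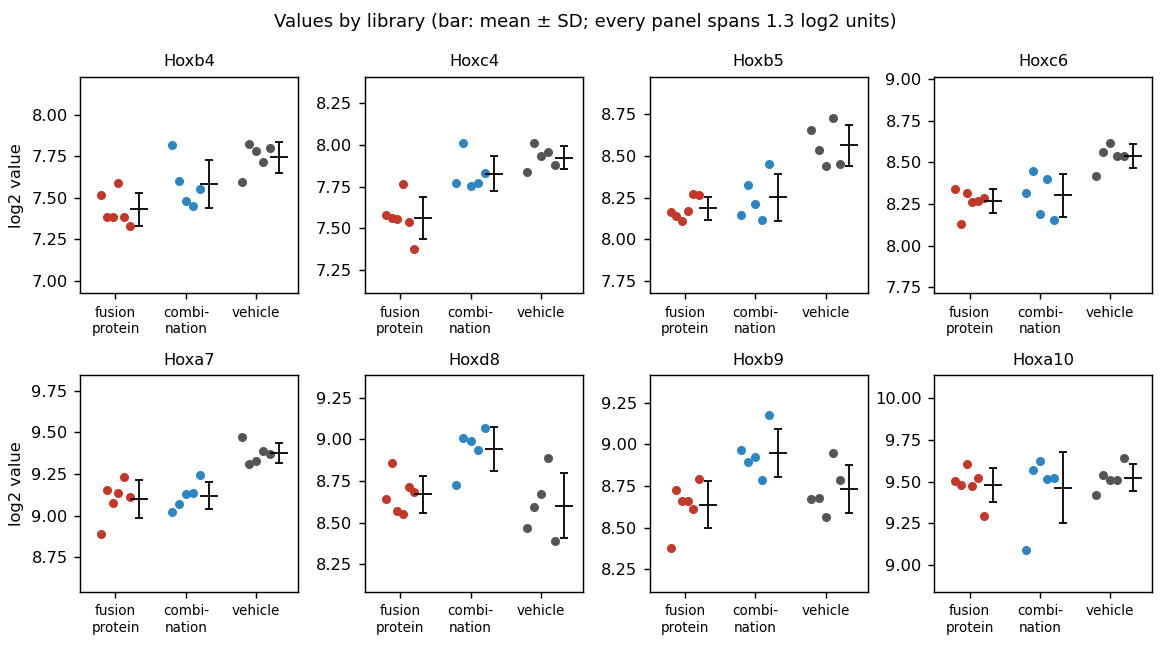
Log2 values of 8 Hox genes in each fusion protein, combination and vehicle library (points), with group means and SD (bars beside the points). Fusion protein libraries lie below all vehicle libraries for Hoxb4, Hoxc4, Hoxb5, Hoxc6 and Hoxa7, the mean of Hoxd8 is highest in combination libraries, and 1 combination library of Hoxa10 lies at 9.09, below the others.

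The second comparison asks the same of IL4 and IL10 given as separate proteins, and it uses the same 5 vehicle libraries. Here 7 of the 25 tested Hox genes fell (28%) and 1 rose, while 12.3% of all tested genes were lower and 24.2% were higher. The median log2 difference was -0.10, against 0.06 over all tested genes. Per library, the median over the 25 genes was -0.15 to -0.01 relative to the vehicle mean. All 8 called genes again belong to paralogues 3 to 8, and 0 of the 7 genes of paralogues 9 and 10 passed. Both comparisons share the vehicle libraries and these ranges, so this is not separate support for a pattern by position.

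Hoxb3 had the most negative log2 difference of the 25, with scaled values of 49, 36, 31, 37 and 35 in combination libraries and 78, 64, 84, 53 and 79 in vehicle libraries. The groups did not overlap, and the log2 difference was -0.38 ± 0.09 (limma adjusted p = 0.00236). Hoxa7 had 401, 418, 439, 443 and 485 in combination libraries, all below the lowest vehicle library at 515, with a log2 difference of -0.26 ± 0.07 (limma adjusted p = 0.00631). Hoxb5 had 170, 206, 183, 165 and 235 in combination libraries, of which 4 lay below every vehicle library (-0.31 ± 0.08, limma adjusted p = 0.00373). Hoxa6 also did not overlap, with 42 to 51 in combination and 58 to 76 in vehicle libraries (-0.20 ± 0.07, limma adjusted p = 0.0361). Hoxb6 had 56 to 142 in combination and 140 to 166 in vehicle libraries (-0.33 ± 0.10, limma adjusted p = 0.0109). Hoxc6 had 172 to 234 in combination and 227 to 276 in vehicle libraries (-0.23 ± 0.07, limma adjusted p = 0.0125). In both genes 4 of 5 combination libraries lay below every vehicle library. The seventh, Hoxb8, had 12 to 43 in combination and 38 to 57 in vehicle libraries (-0.25 ± 0.10, limma adjusted p = 0.0428). As said above, it passed the limit for testing only through its vehicle values, so this call is not used as support either.

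Hoxd8 was the only one of the 25 that rose in any comparison with vehicle. It had 305, 395, 390, 370 and 417 in combination libraries and 238, 269, 291, 355 and 220 in vehicle libraries. Of the 5 combination libraries 4 exceeded every vehicle library, and the log2 difference was 0.34 ± 0.09 (limma adjusted p = 0.00638). Its neighbour Hoxd9 was at 0.02, with an interval of -0.19 to 0.22. Hoxb9 was at 0.22, with an interval of 0.03 to 0.40, and did not pass (limma adjusted p = 0.0594).

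With trends on GC content and exonic length removed, 4 genes were lower (Hoxa6, Hoxb3, Hoxb6 and Hoxc6) and 2 higher (Hoxb9 and Hoxd8), while 7.82% of all tested genes were lower, so that the calls of Hoxa7, Hoxb5 and Hoxb8 ended, and the median became -0.00835. All combination libraries carry label numbers from 12 to 19 and 4 of the 5 vehicle libraries numbers from 1 to 8, so no value within label numbers can be had. With the late number as a covariate, 6 genes were called, without Hoxa6 and Hoxc6. The share of all tested genes under this setting is not given here, so nothing particular to Hox genes is read from the count.

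**Figure D3:**
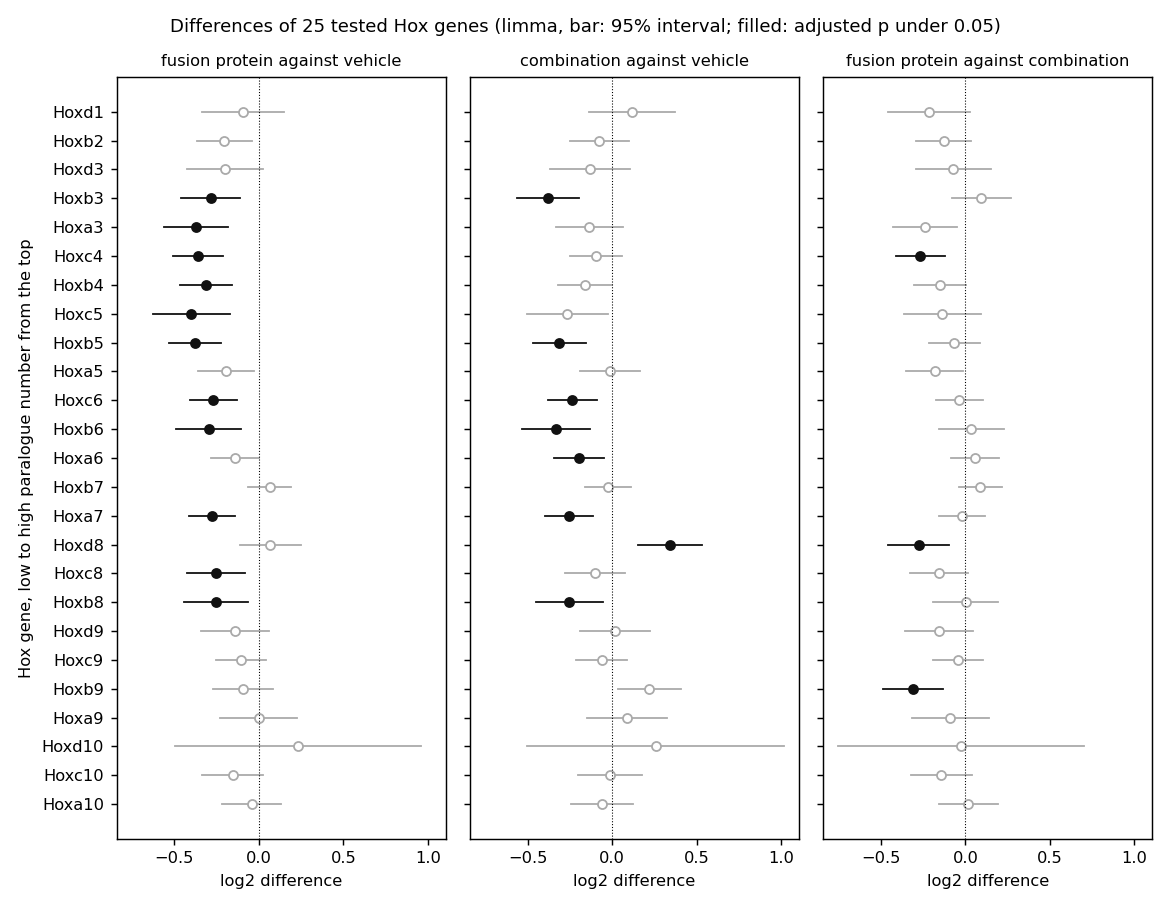
Log2 differences (horizontal axis) of the 25 tested Hox genes, ordered by paralogue number from the top, in the comparisons of fusion protein with vehicle, combination with vehicle and fusion protein with combination. Points are limma estimates, bars 95% intervals, and filled points passed an adjusted p of 0.05. Filled points lie at paralogues 3 to 8 in both comparisons with vehicle, to the left of 0 except for Hoxd8, and Hoxd10 has the widest intervals.

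The third comparison sets the fusion protein against the unlinked cytokines. Of the 25 tested Hox genes 3 were lower with the fusion protein (12%) and 0 higher, while 22.2% of all tested genes were lower and 7.35% were higher. At an unadjusted p under 0.05, 5 Hox genes were lower and 0 higher, again without a share of all tested genes at that threshold. The median log2 difference of -0.09 equalled that of all tested genes, -0.09. Hoxc4 had 63 to 109 in fusion protein libraries, with a median of 82.5, against 110, 146, 107, 110 and 118 in combination libraries. All but 1 of the fusion protein libraries lay below every combination library, and the log2 difference was -0.27 ± 0.07 (limma adjusted p = 0.0129). Hoxb9 had 218 to 326 in fusion protein libraries, with a median of 287, against 381, 357, 366, 324 and 459 in combination libraries (-0.31 ± 0.09, limma adjusted p = 0.0143). Hoxd8 had 258 to 346 in fusion protein libraries, with a median of 288 (287.5), against the combination values given above (-0.28 ± 0.09, limma adjusted p = 0.0256). For Hoxb5 and Hoxa7, called against vehicle in either treatment, the intervals of this difference were -0.22 to 0.09 and -0.16 to 0.11. Without combination replicate 1, 6 genes were called (Hoxa9, Hoxb9, Hoxc4, Hoxd1, Hoxd8 and Hoxd9), all lower with the fusion protein, as were 30.2% of all tested genes. With the GC and length trends removed there were 7 (Hoxa3, Hoxa5, Hoxb2, Hoxb4, Hoxb9, Hoxc4 and Hoxd8), all lower, as were 14.9% of all tested genes. Within label numbers 12 to 19, where there are only 2 fusion protein libraries, there were 2, Hoxc4 and Hoxc8, both lower, as were 18.4% of all tested genes.

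Hoxd10, chosen after its values were seen, varied more between libraries than any other Hox gene in the table, and high and low values occurred in every group. This gene specifies lumbar motor neurons and hindlimb in the mouse, together with its paralogues. Its scaled values were 146, 15, 88, 79, 15 and 15 in fusion protein libraries 1 to 6, 18, 46, 197, 8 and 66 in combination libraries 1 to 5, and 8, 47, 94, 17 and 18 in vehicle libraries 1 to 5. The highest was 24.6 times the lowest, and the SD within groups was 0.59 on the log2 scale, against 0.34 for Hoxd11 and 0.21 for Hoxd1, which came next. The log2 difference from vehicle was 0.23 (interval -0.50 to 0.96) for the fusion protein and 0.26 (interval -0.50 to 1.02) for the combination.

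High and low libraries of Hoxd10 came from every group and from both ranges of label numbers. Values of 46 or more were found in 3 fusion protein, 3 combination and 2 vehicle libraries, of which 5 carry label numbers 1 to 8 and the other 3 numbers 12 to 19. The low-level genes Hoxd11 and Hoxc11, whose products act with those of their paralogues in limb development, are set beside it here, as is Hotair, a long noncoding RNA of the Hoxc cluster.

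Hoxd11 had 32, 5, 23, 12, 3 and 7 in fusion protein, 1, 8, 47, 2 and 24 in combination and 1, 5, 28, 1 and 2 in vehicle libraries. Hoxc11, on another chromosome, had 8, 1, 3, 3, 2 and 1 in fusion protein, 1, 1, 10, 2 and 3 in combination and 2, 2, 6, 1 and 2 in vehicle libraries. The 3 libraries highest for Hoxd10 (combination 3, fusion protein 1 and vehicle 3) were also the 3 highest for Hoxd11 and for Hoxc11. This was seen in the values that led to the choice of Hoxd10, so no test of it is reported. Hotair was at 1 to 6 in all libraries, with its highest values of 6 and 5 in combination 3 and fusion protein 1. Hoxc10, a paralogue of Hoxd10, had 98 to 180 over the 16 libraries, with its highest value in combination 5. Hoxd10 and Hoxd11 share exonic bases with a same-strand transcript, Gm28309 (5.7% and 10.8% of their exonic lengths), and Hoxc11 has no such link to them. Each library combines ganglia L3 to L5; the share of each level in a library was not tested.

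**Figure D4:**
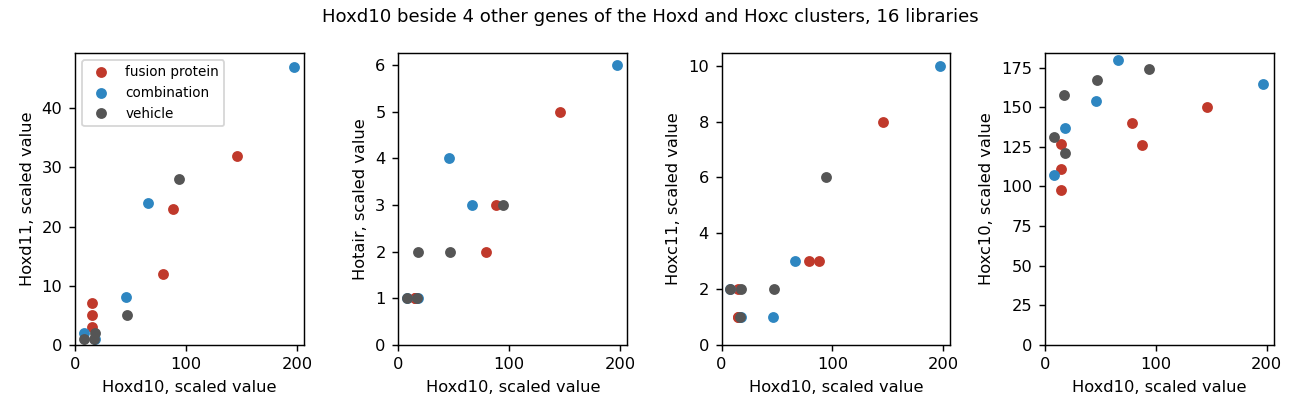
Scaled values of Hoxd11, Hotair, Hoxc11 and Hoxc10 (vertical axes) against those of Hoxd10 (horizontal axes) in 16 libraries, coloured by group. Libraries with Hoxd10 between 8 and 18 lie at the left and come from every group, and Hoxd11 and Hoxc11 are highest, at 47 and 10, in the combination library where Hoxd10 was 197.

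Other rows inside the clusters that passed the limit were the noncoding Haglr and Hoxd3os1 in Hoxd and Gm53 and Hoxb3os in Hoxb. With the fusion protein against vehicle, Gm53 fell by 0.22 ± 0.07 on the log2 scale (limma adjusted p = 0.0341) and Hoxb3os fell by 0.26 ± 0.08 (limma adjusted p = 0.021). Haglr was at -0.06 and Hoxd3os1 at -0.01, neither passing. With the combination against vehicle none of these 4 rows passed, and their log2 differences were -0.13 for Gm53, -0.11 for Hoxb3os, -0.06 for Haglr and 0.03 for Hoxd3os1. Hoxb3os thus fell with the fusion protein as did Hoxb3, with whose exons it overlaps.

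Proteins that work with Hox genes were described beside them. The counts in these lists stand against 13.7% lower and 12% higher of all tested genes with the fusion protein against vehicle, 12.3% and 24.2% with the combination against vehicle, and 22.2% and 7.35% between fusion protein and combination. Several of the counts, such as those of the Polycomb list, are near or under these shares, and nothing particular to a list is read from them. Of 9 TALE cofactors, 3 fell with the fusion protein against vehicle, among them Pbx2 by 0.23 and Meis1 by 0.21 on the log2 scale (limma adjusted p = 0.0076 and 0.0338). The median was -0.18, against -0.02 over all tested genes. With the combination against vehicle, 1 of 9 fell, Pbx2 by 0.26 (limma adjusted p = 0.00338). Between fusion protein and combination, 1 of 9 was lower, Meis2, with -0.28 (limma adjusted p = 0.0395).

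The 12 MLL and H3K27 demethylase proteins act on marks of active or silent Hox genes. Among them, 5 fell and 1 rose with the fusion protein against vehicle. The histone methyltransferases Kmt2d, Kmt2b, Kmt2a and Kmt2c fell by 0.93, 0.46, 0.59 and 0.53 on the log2 scale (limma adjusted p = 2.19e-05 to 0.00353). The groups leaned differently on GC content and exonic length, as given above, and values with these trends removed are not given for this list. With the combination 5 fell and 4 rose, led by Kmt2d, which fell by 0.98, Kmt2b by 0.57 and the demethylase Kdm6b by 0.64, while Rbbp5 rose by 0.36. Between fusion protein and combination, 5 of 12 were lower, with Kmt2c at -0.34 and Rbbp5 at -0.25. Of 21 tested Polycomb proteins, which keep Hox genes silent, 4 fell (Pcgf2 by 0.38, Cbx6 by 0.38, Phc3 by 0.31 and Phf1 by 0.29) and 1 rose (Rbbp7, 0.25) with the fusion protein against vehicle. With the combination 4 fell and 3 rose, with log2 differences of -0.47 for Phc2, -0.37 for Cbx6 and 0.34 for Rbbp7. Between fusion protein and combination 2 were higher and 3 lower, with Phc2 at 0.28, Mtf2 at -0.27 and Pcgf2 at -0.25.

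Retinoic acid sets Hox expression in the embryo. Of 15 tested genes of its pathway, 2 rose and 1 fell with the fusion protein against vehicle: the synthesising enzymes Aldh1a1 and Aldh1a3 rose by 0.37 each and the receptor Rxra fell by 0.33. With the combination 2 rose and 5 fell, with Aldh1a1 at 0.61 and the receptors Rara at -0.52, Rxra at -0.36 and Rarg at -0.36. Between fusion protein and combination 4 were higher and 2 lower, led by Stra6 at 0.66, Rara at 0.52 and Aldh1a3 at 0.40. Of 11 other axial patterning genes only 3 were tested; Cdx2, Cdx4, Evx1, Evx2, Tbx5 and Pitx1 were undetected in every library. With the fusion protein against vehicle, Gdf11, a secreted signal that shifts Hox expression at the trunk to tail transition, fell by 0.39 (limma adjusted p = 0.00439) and Nr6a1 fell by 0.26 (limma adjusted p = 0.0287). With the combination against vehicle neither passed, and Gdf11 was at -0.33 with the fusion protein against the combination (limma adjusted p = 0.0152).

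Markers of the tissue were present: all 10 sensory neuron, 8 satellite glia and 8 Schwann cell markers were tested, and Prph averaged 20160, 15930 and 17970 in fusion protein, combination and vehicle libraries. Some cell type markers differed between the groups. Of all tested genes, 13.7% were lower and 12% higher with the fusion protein against vehicle. The shares were 12.3% and 24.2% with the combination against vehicle, and 22.2% and 7.35% between fusion protein and combination. Several of the marker counts are near these shares, and nothing particular to a cell type is read from them. With the fusion protein against vehicle 4 of 8 macrophage markers rose, and their summed scaled value was 2248 to 3304 in fusion protein and 1559 to 2748 in vehicle libraries. Sensory neuron markers (2 of 10 higher) summed to 124272 to 166611 in fusion protein and 121554 to 143847 in vehicle libraries, while 3 of 10 tested sensory neuron transcription factors were lower. With the combination against vehicle, 5 of 8 satellite glia markers rose, summing to 67648 to 72155 in combination and 54340 to 71596 in vehicle libraries, and 4 sensory neuron markers rose and 1 fell. Between fusion protein and combination, 6 of 8 satellite glia markers were lower. Their sums were 55284 to 91279 (mean 74191) in fusion protein and 67648 to 72155 (mean 70543) in combination libraries, so the mean sum was not lower. Of 8 macrophage markers 2, Cd68 and Aif1, were higher. Of 10 spinal cord markers 2 were high enough to be tested, and 1 of them, Gfap, was higher with the fusion protein than with the combination (mean scaled values of 535 and 36.6, log2 difference 1.96 ± 0.57, limma adjusted p = 0.0228). These 3 markers were named after their values were seen. The 10 spinal cord genes summed to 604 to 1935 in fusion protein, 549 to 670 in combination and 531 to 1180 in vehicle libraries. Fibroblast and meningeal markers, 10 tested, gave 2 higher and 2 lower with the fusion protein and 3 higher and 2 lower with the combination, and summed to 49893 to 63461 in fusion protein, 50814 to 79255 in combination and 43874 to 53604 in vehicle libraries. The part of these markers in the Hox differences was not tested.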

How the data were processed

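PolyA-selected RNA of 16 lumbar DRG libraries was measured. Per the submitters' processing notes, FastQC, STAR, HTSeq and DESeq2 were used with build GRCm38; versions, strand and scaling are not given in the sources used here. Expression was deposited on a log2 scale after variance stabilisation by the authors. Their lowest value, 5.99, decodes to 0, and 100% of values decoded to whole numbers within 0.01. Per the file headers, GC content is a percent. The deposited p-value columns do not name their comparison and were not used. Exonic lengths come from GENCODE for GRCm38, with 36345 genes matched.

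Genes with a mean at least 1 above the lowest value (13385) were tested in 1 limma fit of all groups (limma 3.58.1, R 4.3.3; trend and robust, two-sided, Benjamini-Hochberg over all tested genes, threshold 0.05). Tables and plots used Python 3.11.15. The fit was tested on simulated data. Members and lists were chosen with earlier results of these data known. Some items are not reported here; of genes other than Hox genes, up to 4 called members per list with the lowest p, and rows inside a cluster that passed the filter, are named, with Prph as a tissue check. The choice of Hoxd10, of Hotair and of the printed promoters followed their values. Alternatives were other filters, quantile normalization, limma without trend and robust, fits of 2 groups, a replicate block, label numbers, the decoded scale, removal of GC and length trends, and the omission of each library.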

Additional observations from a re-analysis of the deposited data

Results flagged for a closer look

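For each tested Hox gene and group, the gap between an extreme library and its neighbour was compared with the range of the group; 6 of 75 checks passed Dixon's 95% critical value, where chance flags about 1 in 20 groups. In combination replicate 1, 3 genes of high level lay below the other 4 libraries: Hoxa9 at 9.419 (next 10.03), Hoxa10 at 9.092 (next 9.517) and Hoxd1 at 8.084 (next 8.663), all on the log2 scale. Without this library, Hoxa9 and Hoxd1 were among the 6 genes lower with the fusion protein than with the combination. Hoxa3 in fusion protein replicate 4, at 7.453, lay above the other libraries of its group (next 7.134). Hoxc6 in fusion protein replicate 2, at 8.128, lay below the others (next 8.263), and Hoxa6 in vehicle replicate 3, at 7.499, lay above the others (next 7.364).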

How the results depend on the processing

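No called log2 difference changed sign under the alternatives run. Against 11 Hox genes called with the fusion protein against vehicle, 6 were called without a filter, 6 within label numbers 1 to 8 and 3 of 10 tested with a stricter filter. Against 8 with the combination, 4 were called without a filter and 4 of 10 tested with the stricter one. Against 3 between fusion protein and combination, 7 were called with GC and length trends removed, 5 with late label numbers as covariate and 0 without a filter (4 at an unadjusted p under 0.05). The stricter filter left 10 Hox genes expressed and no filter 38. Without a filter, many undetected rows are added to the limma fit. The shares of all tested genes beside these counts of called genes are not all given here, so the counts show only how the Hox calls changed. Leaving out each library in turn gave 8 to 12, 6 to 9 and 2 to 6 called genes in these comparisons, and 24 or 25 expressed. Same-numbered libraries correlated at -0.20 (-0.196) to 0.60 and over 0.1 in 7 of 15 pairs, so the numbers were not taken as pairs; with the replicate block, 11, 7 and 3 genes were called; it ended the call of Hoxa6 with the combination (adjusted p = 0.0561). By gene, 249 of the alternatives kept the call and 29 lost it in fusion protein against vehicle, 170 and 26 in combination against vehicle, and 67 and 10 between the treatments. The least secure were Hoxb8 (lost in 15 of 25 with the fusion protein and 11 of 24 with the combination), Hoxa6 with the combination (10 of 24), Hoxc8 with the fusion protein (6 of 25) and Hoxd8 between the treatments (6 of 26). Omitting vehicle replicate 3 alone ended the calls of Hoxb3 (adjusted p = 0.0521) and Hoxb6 (0.0564) with the fusion protein. Read depth is unknown, so counting error could not be given, and low members such as Hoxc11 and Hotair rest on scaled values of 1 to 10.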
